A study of Rattus norvegicus with 16 samples.

Results

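The comparison described here is the strain by exposure interaction in the left ventricle: the log2 change with diesel exhaust (DE) exposure in Wistar Kyoto (WKY) rats minus the log2 change with DE exposure in spontaneously hypertensive (SH) rats. It used all 16 arrays of the series, with 4 arrays per group (WKY-air and WKY-DE, SH-air and SH-DE), and 15866 probe sets, of which 12783 carried 1 gene symbol and stood for 10411 genes. The SH rat is an inbred model of genetic hypertension and the WKY rat is its normotensive control strain, and no transgene or added allele was involved. All rats were male and 12–14 weeks of age, and breathed clean air or DE at 2.0 mg/m3 5 days per week over 4 weeks, for 6 hr each day in the sample records and 4 hr in the methods text. RNA came from the left ventricle, which per the paper was frozen together with the septum. The series notes call the 4 arrays of a group biological replicates.

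Left ventricular tissue holds cardiomyocytes, which make the contractile proteins, fibroblasts, which make collagens and the rest of the extracellular matrix, and endothelial, smooth muscle and immune cells. DE carries polycyclic aromatic hydrocarbons, which bind the aryl hydrocarbon receptor and thereby induce Cyp1a1, a monooxygenase that oxidizes them. A negative interaction means that the DE response was lower in WKY than in SH rats. A gene may have fallen with DE in WKY, been raised by DE in SH, or moved in opposite directions. It may also have moved the same way in both strains by different amounts. In whole tissue, fewer cells of a type and less RNA per cell cannot be told apart.

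Signals are MAS5 intensities on a linear scale, with every array scaled to the same trimmed mean, and log2 changes were computed after adding 16.2, so that changes of probe sets near or below that value are damped. The median signal of an array was 178–192 in WKY-air and 209–216 in WKY-DE, versus 173–197 in SH-air and 185–194 in SH-DE, so that the WKY-DE arrays lay above the rest, and over all probe sets the median interaction was 0.09 rather than 0. The ventricular cardiomyocyte markers were bright on every array (summed signal of 14 genes from 315794 to 561874). The atrial light chain Myl7, which the free ventricular wall should nearly lack, differed between arrays, with signals of 25946, 4415, 11451 and 9718 in WKY-air and 657, 404, 9629.5 and 2927 in WKY-DE, versus 33.5, 154, 33.4 and 74.99 in SH-air and 94.2, 1443, 7876 and 187 in SH-DE. Atrial marker levels were thus lower with DE in WKY and, through SH-DE replicates 2 and 3, higher with DE in SH.

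The interaction was called (limma, adjusted p under 0.05 and p before adjustment under 0.01) for 1 of the 12783 probe sets with a gene, a share of 0.00782%. This was the probe set of Fam84b, the gene that current annotation names Lratd2. Its signals were 57.3, 44.8, 46.9 and 46.5 in WKY-air and 7.03, 6.96, 6.72 and 14.0 in WKY-DE. In SH-air they were 12.7, 5.05, 13.8 and 10.001, and in SH-DE 21.3, 29.4, 21.9 and 10.2. The 4 WKY-air arrays lay above all other arrays, the WKY-DE and SH-air arrays all lay below the offset, and 3 of the 4 SH-DE arrays lay above every SH-air array. Fam84b fell with DE in WKY (log2 change −1.39, SE 0.17, limma adjusted p = 0.00471), was 0.46 higher with DE in SH without passing the test (SE 0.17, limma adjusted p = 0.740), and had an interaction of −1.85 (SE 0.24, limma adjusted p = 0.02). The call was made in 9 of the 16 fits that left out 1 array and lost in the other 7, with limma adjusted p from 0.0543 to 0.0807 there, while the interaction stayed between −2.003 and −1.741. The size depended on the offset: it was −3.34 with an offset of 1, not called (limma adjusted p = 0.0789), and −0.83 with an offset at the 25th percentile, called with a limma adjusted p just under 0.05. With an atrial marker covariate the interaction was −1.66 and not called (limma adjusted p = 0.283).

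The 4 genes Col5a3, Mrps12, Marveld1 and Tes also had an adjusted interaction p under 0.1, each with a lower response in WKY. Col5a3, the α3 chain of type V collagen, had signals of 125, 111, 118 and 222 in WKY-air and 50.7, 18.5, 18.5 and 19.7 in WKY-DE. In SH rats its signals were 13.9, 13.8, 14.9 and 15.8 in air and 21.2, 18.4, 50.5 and 21.8 with DE. The groups did not overlap within either strain, and WKY-air lay far above the other 3. Col5a3 fell with DE in WKY (log2 change −1.91, SE 0.26, limma adjusted p = 0.00984), and its interaction of −2.38 (SE 0.36, limma adjusted p = 0.0771) missed the threshold.

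Mrps12, a protein of the small mitochondrial ribosomal subunit, had signals of 1420.4, 1351, 1251 and 1366 in WKY-air and 750.3, 831, 648 and 699 in WKY-DE. Its SH signals were 1184, 1052, 1329.9 and 1052 in air and 1224, 1227, 1361 and 1164 with DE. The 4 WKY-DE arrays were the lowest of all 16, and the SH groups overlapped. Mrps12 fell in WKY (log2 change −0.87, SE 0.11, limma adjusted p = 0.00872) and changed by 0.11 (SE 0.11) in SH, an interaction of −0.98 (SE 0.16, limma adjusted p = 0.0771). Marveld1, a membrane protein with a MARVEL domain, had 736, 848, 1029 and 963 in WKY-air and 332, 302, 389.7 and 279.6 in WKY-DE, versus 649, 371, 565 and 377 in SH-air and 636, 887, 754 and 455 in SH-DE. Its fall in WKY passed the test (log2 change −1.41, SE 0.22, limma adjusted p = 0.0154), and its interaction was −1.88 (SE 0.31, limma adjusted p = 0.0771). A second Marveld1 probe set gave an interaction of 0.80, of the other sign, so that the direction for this gene depends on the probe set.

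Tes, the LIM protein testin of focal adhesions, had signals of 63.8, 36.0, 86.5 and 57.5 in WKY-air and 27.7, 13.6, 5.52 and 7.91 in WKY-DE. In SH-air they were 5.41, 4.53, 9.02 and 16.3, and in SH-DE 31.7, 22.1, 24.0 and 15.9. Every WKY-air array lay above every SH array, whereas WKY-DE and SH-DE overlapped. Its interaction was −2.05 (SE 0.34, limma adjusted p = 0.0771), with a change of −1.38 in WKY that passed the test (limma adjusted p = 0.0204) and of 0.67 in SH that did not (limma adjusted p = 0.740). Just beyond these 5, among the probe sets that represent their genes, stood Arhgef40 (interaction −1.98, SE 0.36) and Smim24, a small membrane protein (interaction 0.97, SE 0.18), both with a limma adjusted p of 0.102. After quantile normalization the interaction was called for 6 genes, which were Fam84b, Col5a3, Mrps12, Marveld1, Tes and Arhgef40.

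**Figure D1:**
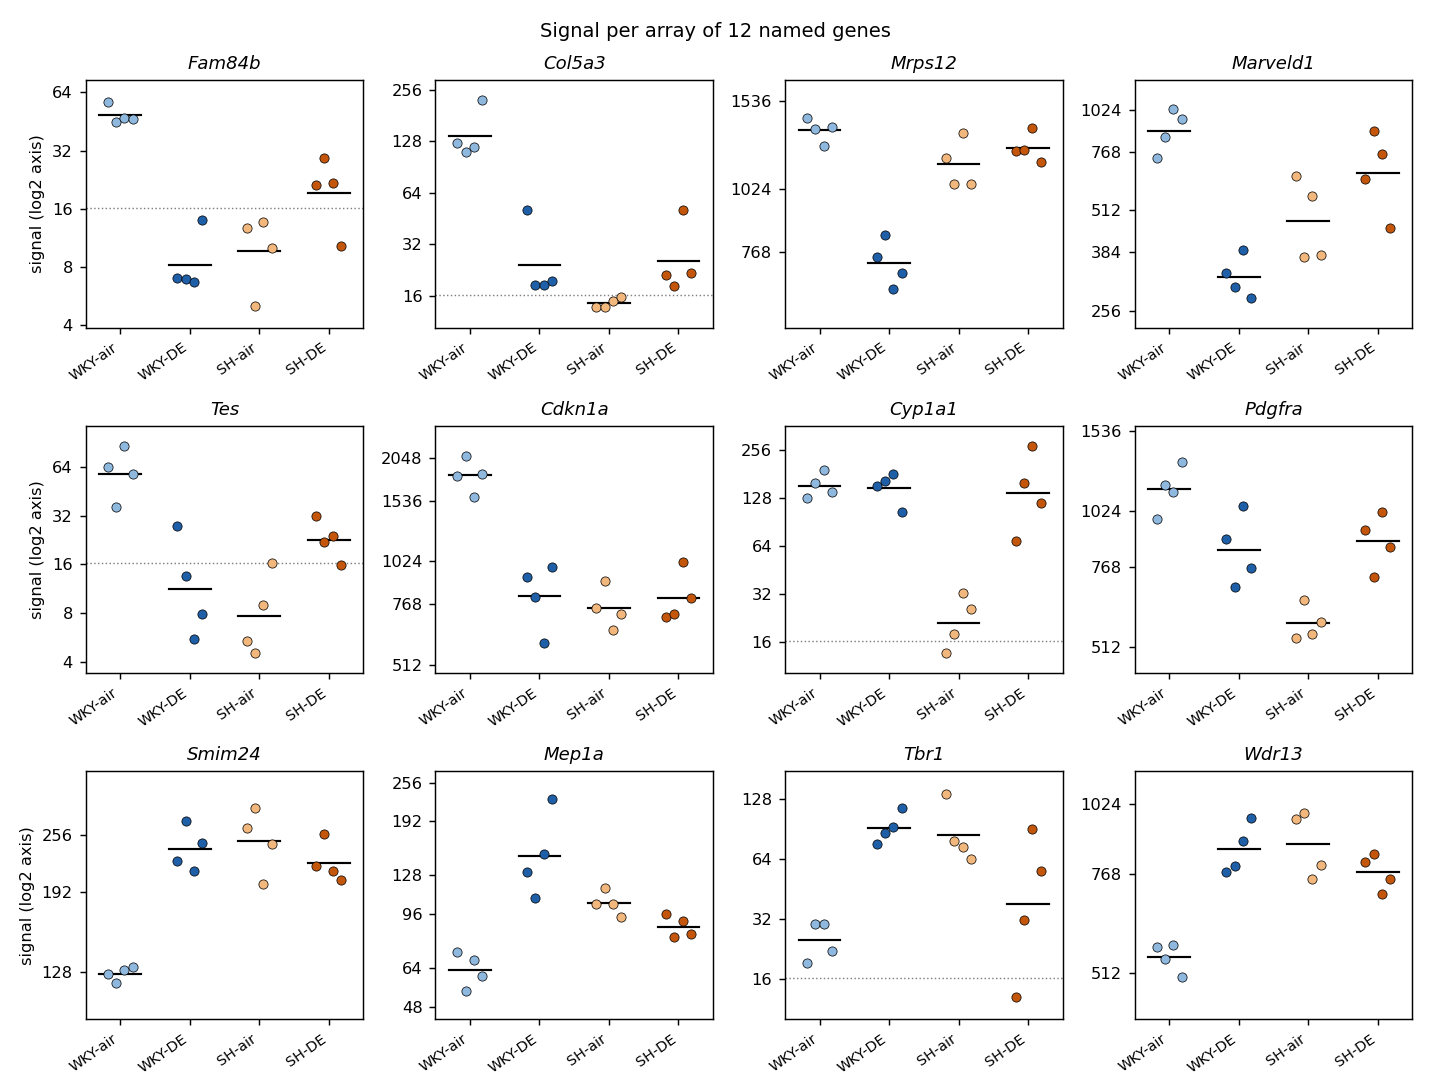
Signal of each array (points, log2 axis) for 12 named genes in the 4 groups. Black lines are geometric means of 4 arrays and the dotted line is the offset of 16.2 where it lies in range. Cyp1a1 is low in the 4 SH-air arrays only (13.6 to 32.3), Cdkn1a is high in the 4 WKY-air arrays only (1580.1 to 2079.6), and Smim24 is low in the 4 WKY-air arrays only (121 to 131).

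Cyp1a1 was among the genes with the lowest interaction p and had the larger DE effect in SH rats, as did C1qtnf4, Onecut2 and Snrpd2 described below. Its signals were 128, 158, 189.6 and 139 in WKY-air and 152, 163, 179 and 104 in WKY-DE. In SH rats they were 13.6, 17.99, 32.3 and 25.7 in air and 68.8, 159, 271 and 118 with DE. The WKY groups overlapped completely, whereas every SH-DE array exceeded every SH-air array and overlapped the WKY arrays. The DE effect was −0.04 (SE 0.29) in WKY and 2.03 (SE 0.29) in SH, the latter with the lowest adjusted p of any SH effect (limma adjusted p = 0.0901), and the interaction of −2.07 (SE 0.42, limma adjusted p = 0.143) did not pass the test. With an atrial marker covariate it was −1.35. Of the other genes of the xenobiotic response, Aldh3a1, an aldehyde dehydrogenase that is also a target of the receptor, had an interaction of −1.83 (SE 0.57) that lay mainly on the WKY side, with WKY-air at 129.9 ± 25.6 (SD, n = 4, as for all means below) and WKY-DE at 39.5 ± 19.5, versus SH-air at 34.3 ± 28.6 and SH-DE at 46.9 ± 28.3. Ephx1, microsomal epoxide hydrolase, went the other way with an interaction of 0.54 (SE 0.17). Of the 14 measured genes of this list, 2 had a higher and 3 a lower WKY response at an unadjusted p under 0.05. Over all genes these shares were 7.79% (811 of 10411) higher and 4.8% (500) lower, and they apply to every list count at this limit below.

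Cdkn1a, which encodes the cell cycle inhibitor p21, had signals of 1817, 2079.6, 1580.1 and 1840.0 in WKY-air and 922, 806, 590.5 and 988 in WKY-DE. The SH signals were 747, 899, 644 and 719 in air and 703, 719, 1018 and 803 with DE. WKY-air stood apart, and the other 3 groups overlapped. Cdkn1a fell in WKY (log2 change −1.15, SE 0.17, limma adjusted p = 0.0154) but changed by 0.10 (SE 0.17) in SH, with an interaction of −1.25 (SE 0.24, limma adjusted p = 0.123). Its second probe set gave −1.73. Gadd45g, another growth arrest gene, had an interaction of −0.85 (SE 0.26), and these were the 2 of 15 measured growth arrest genes with a lower WKY response at an unadjusted p under 0.05, with none higher (1 higher after quantile normalization). Cytl1, a secreted cytokine-like protein, also fell in WKY (775 ± 170.1 in WKY-air and 393 ± 60.7 in WKY-DE, versus limma adjusted p = 0.0290), against 288 ± 66.2 in SH-air and 378 ± 35.1 in SH-DE, and its interaction was −1.33 (SE 0.26, limma adjusted p = 0.123).

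Snrpd2, a core protein of the spliceosomal snRNPs, had DE effects of opposite sign. Its signals were 1718, 1147, 1244 and 1233 in WKY-air and 925, 1133, 945 and 981 in WKY-DE. In SH-air they were 1238, 1189, 1253 and 1099.8, and in SH-DE 1789, 1729, 1745 and 1726. The 4 SH-DE arrays were the highest of all 16 arrays, and neither strain's groups overlapped. Its effects were −0.40 (SE 0.12) in WKY and 0.54 (SE 0.12) in SH, with an interaction of −0.95 (SE 0.18, limma adjusted p = 0.107), and none of the 3 passed the test.

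Below the call, 477 probe sets (3.73%) had an unadjusted interaction p under 0.01, where 128 would be expected if no response differed, and 1598 (12.5%) had one under 0.05, against 639. At 0.01, 305 had a higher and 172 a lower response in WKY. The effects of the strains had opposite signs in 275 of the 305 and in 164 of the 172, and the WKY effect was the larger in 249 and 129. The median effects were 0.71 in WKY and −0.29 in SH for the first set, and −0.57 in WKY and 0.29 in SH for the second. In 239 of the 305 the lowest group was WKY-air, which was lowest in 34.5% of all probe sets with a gene, and in 136 of the 172 the highest was WKY-air, which was highest in 24.4% of all. Selection by the interaction favors such patterns, so that nothing is read from these counts. The median SH minus WKY difference of the first set was 0.54 in air and −0.46 with DE, and that of the second −0.58 in air and 0.26 with DE. The first set was dimmer, with a median signal of 168 against 510 for the second and 224 for all probe sets with a gene. The split between directions rested on scaling: 63.9% were higher as deposited, 41.6% (176 against 247) after quantile normalization and 27.4% (136 against 361) after centring each array on its median. Of the 172 lower ones 162 were kept after quantile normalization and of the 305 higher ones 161, and all kept their sign. With a covariate from the atrial markers Myl7 and Myl4, 38 of the 172 and 71 of the 305 were kept, again with no change of sign.

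**Figure D2:**
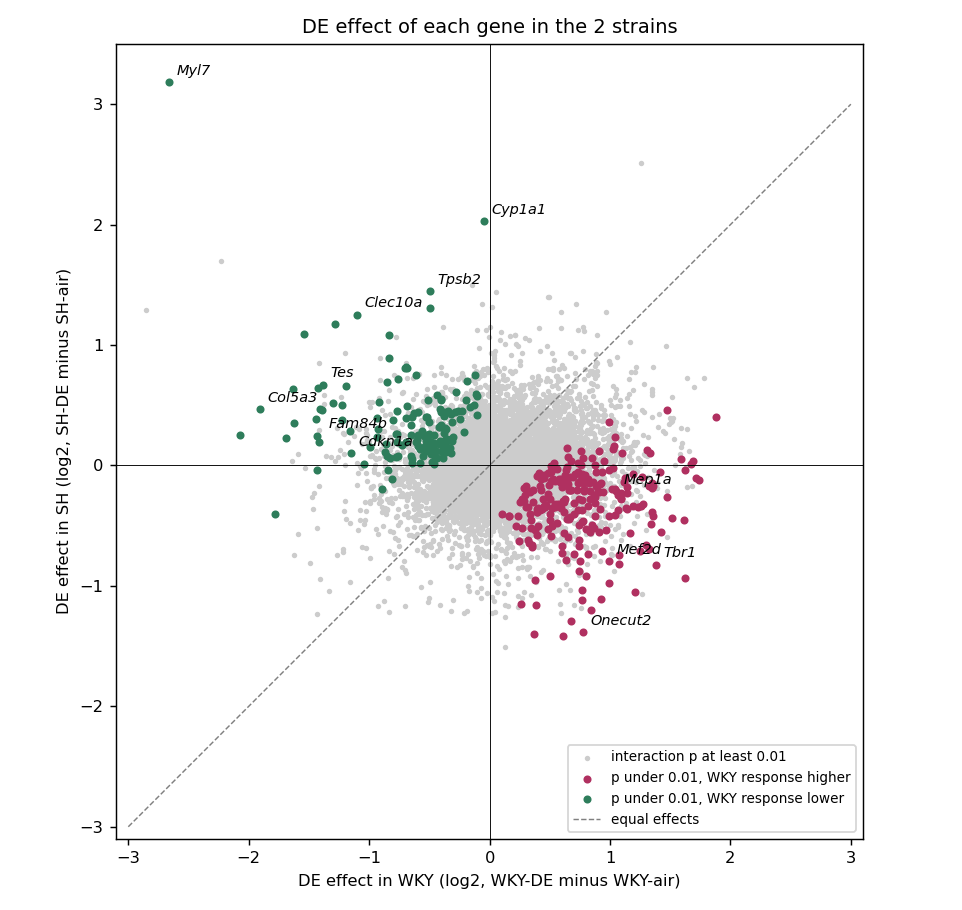
DE effect in SH rats (vertical, log2) against the DE effect in WKY rats (horizontal, log2) for each gene, with genes of an unadjusted interaction p under 0.01 in color and equal effects on the dashed line. Most colored genes lie left of and above the origin (WKY response lower) or right of and below it (WKY response higher), and Cyp1a1 lies near 0 in WKY and at 2.03 in SH.

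Fibroblast markers had the most negative median interaction of the gene lists. Of 14 measured markers, 10 had a lower WKY response at an unadjusted p under 0.05 and none a higher one, against 4.8% and 7.79% of all genes. The median effect of the list was −0.44 in WKY and 0.16 in SH, and its median interaction was −0.62, compared with 0.09 for all probe sets. The effect was below 0 for 12 of the 14 genes in WKY and above 0 for 12 in SH. None of these genes was called for the interaction, and 1 of the 14 was called for the DE effect in WKY. The count of lower responses was 10 after quantile normalization and 12 after median centring, but 4 with an atrial marker covariate and 7 without SH-DE replicates 2 and 3. The median interaction was −0.35 with the covariate and −0.58 without those arrays, with 12 of the 14 genes below 0 in each fit. A fit with an added covariate or fewer arrays is less precise, which can lower such counts. With the covariate the median interaction was also nearer 0, and what lowered the counts was not tested.

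Promoters of the fibroblast genes Postn, Dpt and Col1a2 are shown because these 3 were the fibroblast markers, of 9 with a promoter in the reference table, that held a TATA box within 250 bases upstream of the annotated start (RefSeq, GRCr8, + strand). Capitals mark the TATAAA.
Postn: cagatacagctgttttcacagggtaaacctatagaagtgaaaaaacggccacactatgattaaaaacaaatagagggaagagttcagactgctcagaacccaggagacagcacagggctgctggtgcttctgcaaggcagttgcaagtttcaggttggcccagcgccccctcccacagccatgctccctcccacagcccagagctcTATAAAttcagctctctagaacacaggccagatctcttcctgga
Dpt: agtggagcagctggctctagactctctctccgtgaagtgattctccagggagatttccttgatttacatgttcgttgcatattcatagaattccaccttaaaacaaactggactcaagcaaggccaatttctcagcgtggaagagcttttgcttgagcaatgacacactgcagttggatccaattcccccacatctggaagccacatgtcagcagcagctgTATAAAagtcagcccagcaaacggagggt
Col1a2: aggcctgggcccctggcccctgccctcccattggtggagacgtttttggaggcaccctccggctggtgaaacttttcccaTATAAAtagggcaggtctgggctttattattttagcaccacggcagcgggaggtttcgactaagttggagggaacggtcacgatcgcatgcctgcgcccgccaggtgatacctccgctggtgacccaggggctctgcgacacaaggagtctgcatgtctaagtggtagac
The regions are chr2:140677811-140678060 for Postn, chr13:79656091-79656340 for Dpt and chr4:33518307-33518556 for Col1a2, and the first T lies at −44, −29 and −170 from the start. The letters TATAAA, sought on either strand, occurred in 8.4% of the 8630 array genes with a promoter, in 8.4% (16 of 191) of the genes with a higher and 14.0% (17 of 121) of those with a lower WKY response at an unadjusted p under 0.01, and in 13.1% of all promoters in the table. The GC box GGGCGG was found in 1 of the 9 fibroblast promoters, in 45.0% of the higher and 60.3% of the lower genes, and in 56.2% of the array genes. The CCAAT box CCAAT was found in 5 of the 9, in 31.9% and 26.4%, and in 35.4%. The receptor core GCGTG was found in 3 of the 9, in 27.7% and 40.5%, and in 42.3%. These matches describe letters in a window and were not tested. Fam84b, Mrps12 and Cyp1a1 were not among the promoters used here.

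Pdgfra, the platelet-derived growth factor receptor that marks cardiac fibroblasts, had signals of 985, 1167, 1127 and 1318 in WKY-air and 889, 693, 1049 and 767 in WKY-DE. In SH rats they were 537, 649, 547 and 582 in air and 928, 732, 1019 and 852 with DE. Every SH-DE array exceeded every SH-air array, the WKY groups overlapped, and the DE groups of the strains overlapped where the air groups had not. Its effects were −0.44 (SE 0.15) in WKY and 0.59 (SE 0.15) in SH, with an interaction of −1.03 (SE 0.21, limma adjusted p = 0.143). Dpt, dermatopontin of the collagen matrix, had 2683, 3561, 2883 and 3649 in WKY-air and 2507, 2284, 2080.4 and 2083 in WKY-DE, versus 2081, 1966, 2609.9 and 2284 in SH-air and 2748, 2547, 2775 and 3442 in SH-DE. Its interaction was −0.86 (SE 0.20), and its second probe set gave −1.25.

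Postn, periostin, a matricellular protein of activated fibroblasts, had 529, 243, 432 and 372 in WKY-air and 208, 58.9, 223 and 50.2 in WKY-DE. Its SH signals were 187, 174, 89.3 and 89.6 in air and 145, 248, 192 and 264 with DE. The spread within groups was wide, and its interaction of −2.26 carried an SE of 0.58. Col1a2, the α2 chain of type I collagen, fell in WKY (4196 ± 1143 in WKY-air and 2273 ± 297 in WKY-DE, log2 change −0.85, limma adjusted p = 0.0498), while SH-air (2346 ± 412) and SH-DE (2483 ± 546) overlapped. Its interaction was −0.92 (SE 0.29), and −0.62 by its second probe set. Mfap5, a microfibril protein, had an interaction of −1.22 (SE 0.32), with means of 1117 ± 194, 673 ± 258, 489 ± 92.6 and 666 ± 44.6 in the WKY air and DE and the SH air and DE groups.

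Collagens and the rest of the matrix were low in the same contrast. These lists share members with the fibroblast list, such as Col1a2 among the collagens and Postn and Mfap5 in the rest of the matrix. Their counts are therefore not separate from those of the fibroblast markers. Of 17 measured collagens, 6 had a lower and none a higher WKY response at an unadjusted p under 0.05, with a median interaction of −0.48, and of 36 other matrix genes 13 had a lower and none a higher one, with a median of −0.31. Mfap4, a microfibril-associated glycoprotein, fell in WKY from 2278 ± 258 to 1129 ± 71.3 (log2 change −0.997, limma adjusted p = 0.0364) and was 1057 ± 206 in SH-air and 1225 ± 485 in SH-DE, an interaction of −1.15 (SE 0.30). Ccn2, connective tissue growth factor, fell in WKY from 2987 ± 469.6 to 1708 ± 289.6 (log2 change −0.80, limma adjusted p = 0.0462) and had 2304 ± 372 in SH-air and 3038 ± 738 in SH-DE, an interaction of −1.18 (SE 0.27). Col14a1, a fibril-associated collagen, had its effect mainly in SH (604 ± 116 in air and 895 ± 57.2 with DE, against 823 ± 87.9 and 772 ± 144 in WKY) with an interaction of −0.68, but its second probe set gave −0.10. Of 25 TGF-β signaling genes, 4 were lower and 1 higher, beside shares of 4.8% and 7.79% over all genes. The growth factor Tgfb3 had an interaction of −0.85 (SE 0.22) and the signal transducer Smad4 one of −0.73 (SE 0.20, −0.13 by its second probe set), whereas Smad6, an inhibitor of the pathway, had 1.41 (SE 0.38).

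**Figure D3:**
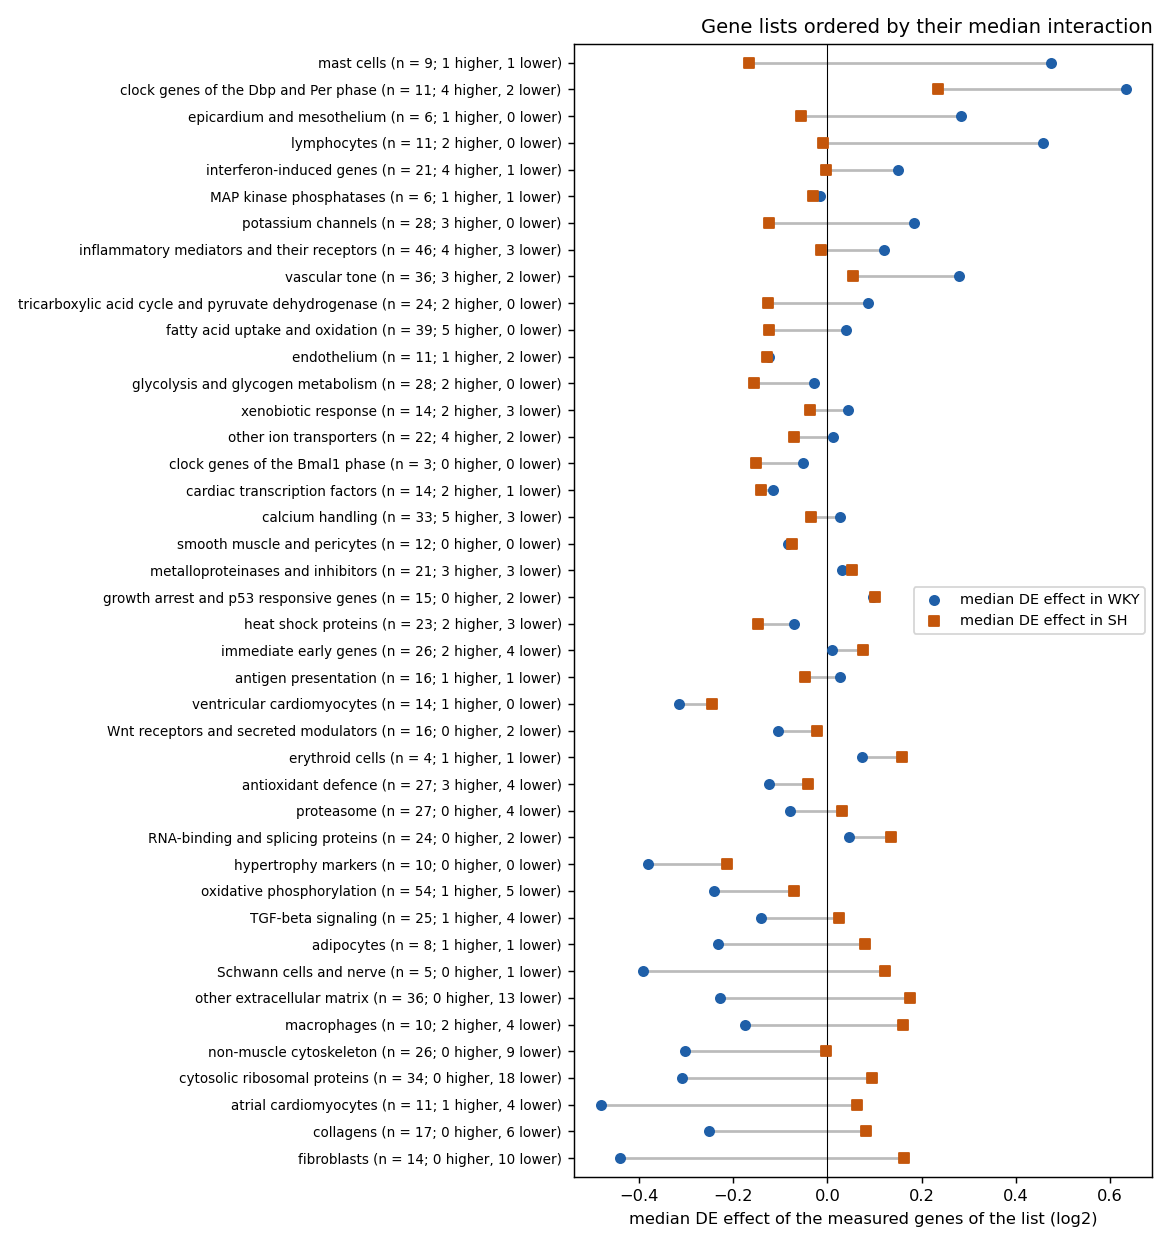
Median DE effect of the measured genes of each list in WKY (circles) and SH rats (squares), in log2, ordered by the median interaction; each label gives the number of genes and how many had a higher or lower WKY response at an unadjusted p under 0.05. Fibroblasts stand at the bottom with −0.44 in WKY and 0.16 in SH.

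Fibroblast and atrial markers were both highest in WKY-air, and the place of single SH-DE arrays against SH-air depended on the measure. The summed signal of the 14 fibroblast markers was 31151–38715 in WKY-air and 23201–29927 in WKY-DE, versus 20043–23471 in SH-air and 23953–26374 in SH-DE, while that of 11 atrial markers was 50977–123802, 24884–57348, 26301–39077 and 24854–46943 in the same groups. In SH-DE replicates 1 and 4 the fibroblast sums (23953 and 24098) lay above every SH-air array. Their atrial sums (24854 and 26166) lay below every SH-air array, but sums follow the brightest genes. By the mean log2 level of Myl7 and Myl4, replicate 4 (7.51) lay above every SH-air array (6.26 to 7.45). Replicate 1 (6.83) lay within their range. By the mean log2 level of the atrial list, both arrays (8.67 and 8.69) lay within the SH-air range (8.60 to 8.99). The mean log2 fibroblast level of replicate 4 (9.58) lay below that of SH-air replicate 2 (9.62). Of the 11 atrial markers, 4 had a lower and 1 a higher WKY response, and Myl7 had an interaction of −5.84 (SE 1.69) and Sln, sarcolipin, of −4.14 (SE 1.76). With the atrial covariate, 4 of the 14 fibroblast markers, 1 of 17 collagens and 3 of 36 other matrix genes had a lower WKY response. The median interactions of these lists were then −0.35, −0.19 and −0.26. Without the SH-DE arrays of replicates 2 and 3, which held the most Myl7 of their group, the counts were 7, 3 and 10, and the medians −0.58, −0.42 and −0.28. The interaction of Dpt was −1.13 with the covariate and that of Pdgfra −0.84, whereas Col1a2 went to −0.34. The part of the atrial markers in the result was not tested.

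**Figure D4:**
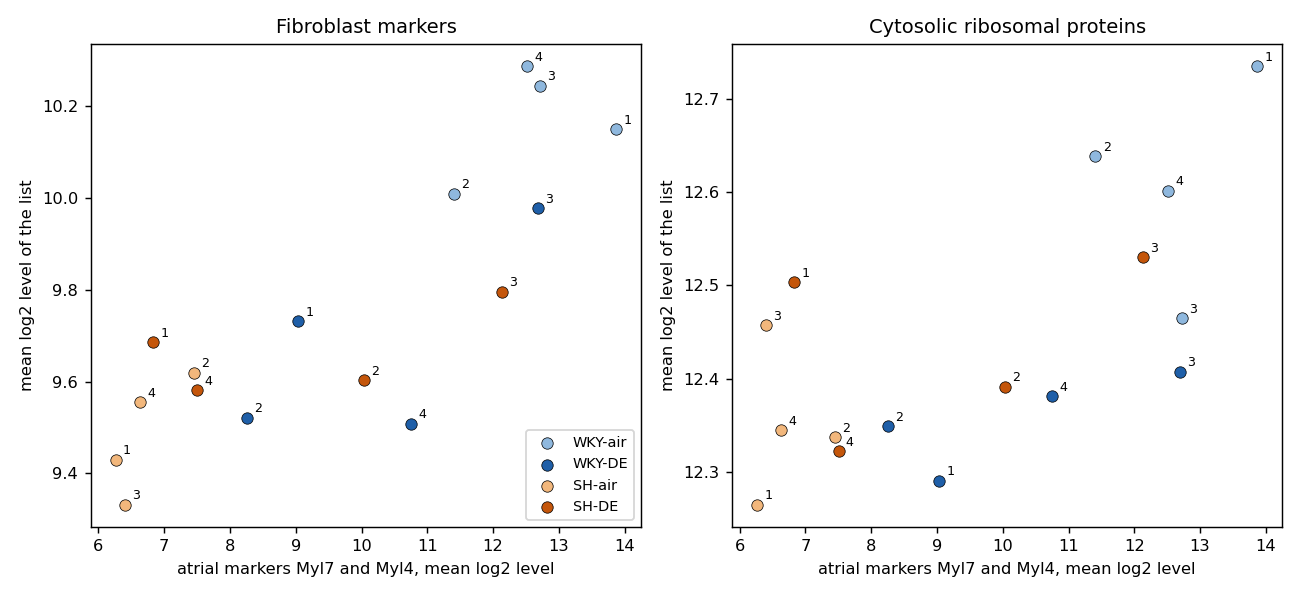
Mean log2 signal of the atrial light chains Myl7 and Myl4 (horizontal) against the mean log2 signal of the fibroblast markers (left) and of the cytosolic ribosomal proteins (right), with 1 point per array in the color of its group and labeled by replicate number. The 4 WKY-air arrays lie at the upper right of the fibroblast panel and the 4 SH-air arrays at the lower left, with SH-DE replicates 2 and 3 to the right of the other SH arrays.

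Ribosomal proteins also had a median interaction below 0. Of 34 measured cytosolic ribosomal proteins, 18 had a lower and none a higher WKY response at an unadjusted p under 0.05, against 4.8% and 7.79% of all genes. The median effect was −0.31 in WKY and 0.09 in SH. After quantile normalization the count of lower responses was 8 and with the atrial covariate 2. The median interaction of the list was −0.37 as reported, −0.23 after quantile normalization and −0.28 with the covariate. In the last 2 fits 26 and 27 of the 34 genes lay below 0. Rpl18, a protein of the large subunit, had 10815, 10009, 7218 and 10101 in WKY-air and 6031, 6025, 5759 and 7042 in WKY-DE, versus 6786, 6206, 6935 and 5862 in SH-air and 7382, 7625, 7258 and 7574 in SH-DE. No group overlapped the other group of its strain, and the order of the strains reversed between air and DE. Its fall in WKY passed the test (log2 change −0.60, limma adjusted p = 0.0353) and its interaction was −0.82 (SE 0.18, limma adjusted p = 0.143). Rpsa, which also serves as a laminin receptor, had interactions of −0.56, −0.62 and −0.03 by its 3 probe sets, and Rpl3 had −0.68 (SE 0.17). Ribosomal proteins have many near-identical pseudogene copies, so that these probe sets may not be specific.

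The non-muscle cytoskeleton list had 9 of 26 genes with a lower WKY response and none higher, against 4.8% and 7.79% of all genes. S100a10, the annexin A2 partner, had means of 1284 ± 202, 1115 ± 103, 830.1 ± 97.8 and 1216 ± 125 in the WKY air and DE and the SH air and DE groups, an interaction of −0.74 (SE 0.19) that lay mainly in SH. S100a6 showed the same pattern, with −0.89 (SE 0.27), whereas for S100a11 (−0.76, SE 0.24) the larger effect was the −0.52 in WKY. With the atrial covariate none of the 26 had an unadjusted p under 0.05, while the median interaction was −0.23, against −0.34 without it.

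Of 10 macrophage markers, 4 had a lower and 2 a higher WKY response (5 and 0 after quantile normalization). Shares over all genes were 4.8% and 7.79%. C1qb, a chain of complement C1q, had 450.3, 436, 535 and 575 in WKY-air and 386, 427, 336 and 343 in WKY-DE, versus 357, 319.7, 356 and 314 in SH-air and 609, 407, 588 and 427 in SH-DE. It was lower with DE in WKY and higher with DE in SH with no overlap within either strain (effects −0.40 and 0.55, interaction −0.95, SE 0.21, limma adjusted p = 0.143). C1qa followed with −0.64 (SE 0.22) and Lyz2, lysozyme, with −0.51 (SE 0.19). The 2 macrophage markers with a higher WKY response are not named here. Without the SH-DE replicates 2 and 3, 1 macrophage marker was lower and 1 higher. The median interaction of the macrophage list was −0.35 in that fit and −0.32 as reported, with 7 of the 10 markers below 0 in both. Of the mast cell proteases, Tpsb2, a tryptase, had an interaction of −1.95 (SE 0.60), from 61.0 ± 33.9 in SH-air to 186 ± 61.3 in SH-DE. Cpa3, a carboxypeptidase of the same cells, had 1.01 (SE 0.37) and rose in WKY (72.7 ± 15.8 to 173 ± 32.2, limma adjusted p = 0.0480). Of the 9 measured mast cell markers, 7 had an interaction above 0, with a median of 0.70, and at an unadjusted p under 0.05 Cpa3 was the 1 with a higher and Tpsb2 the 1 with a lower WKY response.

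Among the probe sets that represent their genes, the lowest interaction p with a higher response in WKY was that of Smim24, whose signals were 127, 121, 129.9 and 131 in WKY-air and 225, 275, 213 and 246 in WKY-DE. In SH rats they were 265, 294, 199.8 and 244 in air and 218, 258, 214 and 204 with DE. WKY-air lay below all other arrays, and the other 3 groups overlapped. Smim24 rose in WKY (log2 change 0.83, SE 0.13, limma adjusted p = 0.0154) and changed by −0.15 (SE 0.13) in SH. Mep1a, the α subunit of the metalloprotease meprin, had 72.1, 53.9, 68.2 and 60.1 in WKY-air and 132, 108, 149.7 and 226 in WKY-DE, versus 104, 116, 103 and 93.5 in SH-air and 95.6, 80.6, 90.8 and 82.8 in SH-DE. It rose in WKY (log2 change 1.05, limma adjusted p = 0.0177), with an interaction of 1.27 (SE 0.24, limma adjusted p = 0.107). Wdr13, a WD repeat protein, rose in WKY from 547 ± 32.7 to 854 ± 87.5 (limma adjusted p = 0.0263) and had 876 ± 118 in SH-air and 777 ± 55.9 in SH-DE, an interaction of 0.79 (SE 0.17).

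The next genes in this direction gave low signals. Tbr1, a T-box transcription factor of cortical neurons, had 19.3, 30.4, 30.3 and 22.1 in WKY-air and 75.9, 86.6, 92.9 and 115 in WKY-DE, versus 137, 79.1, 73.7 and 64.2 in SH-air and 13.0, 31.5, 90.7 and 55.9 in SH-DE. It rose in WKY (log2 change 1.38, limma adjusted p = 0.0399) and had an interaction of 2.21 (SE 0.44). Cntn5, a neural adhesion protein, rose in WKY from 11.6 ± 6.00 to 70.9 ± 25.6 (limma adjusted p = 0.0285) and Drd1, the dopamine D1 receptor, from 15.004 ± 13.9 to 58.6 ± 6.06 (limma adjusted p = 0.0290). Their interactions were 2.07 (SE 0.44) and 1.78 (SE 0.38), but the second Drd1 probe set gave 0.26. Onecut2, a homeodomain transcription factor, had its larger effect in SH (74.5 ± 15.2 in air and 20.0 ± 13.1 with DE) with an interaction of 2.16 (SE 0.44) and 0.40 by its second probe set. C1qtnf4, a secreted C1q-like protein, had an interaction of 1.33 (SE 0.26) at group means of 4.30 to 24.0, of which only that of SH-air lay above the offset.

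Khk, ketohexokinase of fructose metabolism, had DE effects of opposite sign with no overlap within either strain, and none of its tests passed. Its signals were 67.6, 75.6, 36.3 and 57.0 in WKY-air and 97.6, 109, 139.9 and 118 in WKY-DE. In SH-air they were 95.3, 84.3, 82.9 and 80.5, and in SH-DE 77.3, 67.5, 39.0 and 37.4. The strain with the higher signal was SH in air and WKY with DE. Its effects were 0.83 (SE 0.20) and −0.55 (SE 0.20), with an interaction of 1.39 (SE 0.29, limma adjusted p = 0.143). Rbm27, an RNA-binding protein, had 134 ± 14.1, 190.0 ± 23.2, 175 ± 17.5 and 135 ± 4.93 in the WKY air and DE and the SH air and DE groups, again without overlap within either strain, and an interaction of 0.79 (SE 0.16). Rap2b, a small GTPase, rose in WKY (77.5 ± 12.4 to 144 ± 27.1, limma adjusted p = 0.0399) and had 97.1 ± 22.0 in SH-air and 71.1 ± 14.5 in SH-DE, an interaction of 1.14 (SE 0.24).

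Counted over all probe sets with a gene, 69 (0.54%) had effects of opposite sign in the strains, each at an unadjusted p under 0.05, among 205 with both effects below that limit. The other 136 had the same sign, 89 upward and 47 downward. Taken singly at that limit, 1739 were higher and 870 lower with DE in WKY, and 414 and 382 in SH. Effects that are unrelated between the strains also give opposite pairs at such counts, so that the 69 are not read as an excess. Of the 69, 41 were higher with DE in WKY and lower in SH (median effects 0.60 and −0.53) and 28 were lower in WKY and higher in SH (−0.51 and 0.47). The size of their interaction ran from 0.55 to 5.84. Quantile normalization left 38 of the 69 opposite and the atrial covariate 20. Besides the genes above, the following were chosen for this text after their values were seen. Lower in WKY and higher in SH were Ctss, the lysosomal protease cathepsin S (−0.52 and 0.40), Rarres2, the chemoattractant chemerin (−0.53 and 0.40), Tlr7, a receptor for single-stranded RNA (−0.61 and 0.75), Clec10a, a macrophage lectin (−1.10 and 1.25), and Eif3k, a subunit of a translation initiation factor (−0.40 and 0.33). Higher in WKY and lower in SH were Arg2, mitochondrial arginase (0.99 and −0.98), and Ehhadh, the peroxisomal bifunctional enzyme of fatty acid oxidation (0.35 and −0.52). None of these 7 was called in either strain.

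The DE effects of the strains were then set against each other where neither set of arrays had chosen the genes of the other. In WKY, 239 probe sets (1.87%) were called, and in SH 0 (0%), where 796 had an unadjusted p under 0.05 and other settings of limma called 0 to 3. Over all probe sets with a gene, 60.6% lay above 0 in WKY, whose DE arrays had the highest median signals. Fewer WKY calls were made after quantile normalization. The paper, from Robust Multichip Average values, instead reports that DE lowered most of the genes it changed in WKY. The 167 called upward in WKY had a median effect of 0.86 there and of 0.08 in SH, and 62.3% of them lay above 0 in SH, against 49.8% of all probe sets with a gene. The 72 called downward had a median of −0.85 in WKY and of 0.01 in SH, with 48.6% below 0 in SH against 50.2% of all. In the other direction, the 95 probe sets higher with DE in SH at an unadjusted p under 0.01 had a median of 0.57 in SH and 0.06 in WKY, and the 76 lower ones had −0.70 in SH and 0.03 in WKY (171 in all, 1.34%). Across all probe sets the effects of the strains had r = 0.02, a description over probe sets that share arrays, and 52.4% had the same sign.

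Clock genes that peak with Dbp and Per had a median interaction of 0.59, with 4 of 11 genes higher and 2 lower (2 and 2 after median centring). Shares over all genes were 7.79% and 4.8%. Dbp, a transcription factor of the clock output, had 212, 112, 231 and 146 in WKY-air and 461, 583, 455 and 501 in WKY-DE, versus 292, 217, 175 and 295 in SH-air and 276, 379.8, 459 and 265 in SH-DE. It rose in WKY (log2 change 1.47, SE 0.23, limma adjusted p = 0.0177) and was 0.46 higher with DE in SH, so that the interaction of 1.01 (SE 0.33) was a difference in size. Nr1d2, the nuclear receptor REV-ERBβ, rose in WKY (log2 change 1.04, limma adjusted p = 0.0220) with an interaction of 0.81 (SE 0.27), but −0.26 and 0.35 by its other probe sets. Per1, a repressor of the clock, went the other way with −1.50 (SE 0.50). The hour of tissue collection is not given in the sources used here.

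Genes of fatty acid uptake and oxidation had a higher WKY response in 5 of 39 and a lower one in none, beside shares of 7.79% and 4.8% over all genes, with medians of 0.04 in WKY and −0.13 in SH. The median interaction of the list was 0.13, but −0.02 after median centring. Slc25a20, the carnitine-acylcarnitine carrier, had 2459.6 ± 257 in WKY-air and 2996 ± 183 in WKY-DE, against 3589 ± 187 in SH-air and 2955 ± 514 in SH-DE, an interaction of 0.58 (SE 0.18). Gpihbp1, which anchors lipoprotein lipase on capillaries, rose in WKY from 443 ± 156 to 864 ± 178 (limma adjusted p = 0.0469), with 1406 ± 69.0 and 1384 ± 236 in SH, an interaction of 1.03 (SE 0.33). Ppargc1a, the coactivator of mitochondrial biogenesis, had 1.33 (SE 0.39). Most genes of oxidative phosphorylation went the other way, with a median interaction of −0.18 and 39 of 54 below 0. Of these 54 genes 1 was higher and 5 lower. The counts were 1 and 1 after quantile normalization, 0 and 12 after median centring, and 0 and 0 with the atrial covariate. After quantile normalization the median interaction was −0.06. The 1 higher as reported was Ndufs1, a complex I subunit, with 0.40 (SE 0.16). Pdk1, a pyruvate dehydrogenase kinase, had 0.41 (SE 0.15), and 0.08 by its second probe set.

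Of 28 potassium channel genes, 3 were higher and none lower, a count near the share of 7.79% over all genes. Kcnd2, a subunit of the transient outward current, rose in WKY from 169 ± 19.2 to 311 ± 74.9 (limma adjusted p = 0.0395) and was 279 ± 23.0 and 265 ± 47.1 in SH-air and SH-DE, an interaction of 0.87 (SE 0.25). Kcnj2, of the inward rectifier, had 1.07 (SE 0.41). Calcium handling split, with 5 of 33 higher and 3 lower, beside shares of 7.79% and 4.8% over all genes. Camk4, a calmodulin-dependent kinase, rose in WKY from 23.3 ± 6.02 to 116 ± 42.6 (limma adjusted p = 0.0202), an interaction of 1.65 (SE 0.41) against 0.34 by its second probe set, and Ryr2, the calcium release channel, had 0.66 (SE 0.28). Of the cardiac transcription factors, Mef2d had 1.79 (SE 0.43), with effects of 0.99 in WKY and −0.80 in SH, but 0.01 by its second probe set. Irx4, a ventricular homeodomain factor, fell in WKY from 60.4 ± 23.4 to 11.4 ± 3.65 (limma adjusted p = 0.0290) with an interaction of −1.68 (SE 0.40).

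Inflammatory and interferon genes went in either direction. Il4r, the interleukin-4 receptor, had 370.5, 262, 298 and 239 in WKY-air and 62.8, 162, 35.7 and 92.1 in WKY-DE. Its SH signals were 188, 160.0, 194 and 136 in air and 233, 177, 233 and 161 with DE. WKY-air lay above every other array and WKY-DE overlapped no WKY-air array. It fell in WKY (log2 change −1.69, SE 0.29, limma adjusted p = 0.0202) with an interaction of −1.92 (SE 0.41, limma adjusted p = 0.143). Il12b, the p40 chain of interleukin-12, rose in WKY from 31.4 ± 20.4 to 155 ± 56.8 (limma adjusted p = 0.0220) and the chemokine Ccl20 from 18.6 ± 15.7 to 73.2 ± 16.1 (limma adjusted p = 0.0345), with interactions of 1.48 (SE 0.49) and 1.15 (SE 0.43). Eif2ak2, the interferon-induced kinase PKR, rose in WKY from 125 ± 19.5 to 225 ± 50.4 (limma adjusted p = 0.0396) and was 132 ± 14.7 and 127 ± 27.9 in SH, an interaction of 0.84 (SE 0.24). Cd3g, of the T cell receptor complex, rose in WKY (41.9 ± 14.3 to 129 ± 37.5, limma adjusted p = 0.0345) with 1.18 (SE 0.39). Over the lists, 4 of 46 inflammatory genes were higher and 3 lower, and 4 of 21 interferon-induced genes higher and 1 lower. The shares over all genes were 7.79% and 4.8%. For the interferon-induced genes the counts were 2 and 1 after quantile normalization, 1 and 4 after median centring, and 0 and 0 with the atrial covariate. Those of the inflammatory genes were 2 and 4 after quantile normalization.

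Stress and vascular genes likewise showed no common direction. Of 23 heat shock proteins 2 were higher and 3 lower. For all lists in this paragraph, the shares over all genes were 7.79% and 4.8%. Hspb3, a small muscle heat shock protein, was lower with DE in WKY (2109.7 ± 316 to 1390.5 ± 205) and higher in SH (1308 ± 295 to 1764 ± 157), an interaction of −1.04 (SE 0.23), while Hspa1a, inducible Hsp70, had 0.97 (SE 0.31). Of 27 antioxidant genes 3 were higher and 4 lower, with Txnrd2, mitochondrial thioredoxin reductase, at 0.72 (SE 0.22) and Sod3, extracellular superoxide dismutase, at −0.65 (SE 0.20). Hmox1, heme oxygenase-1, had an interaction of −0.14 (SE 0.31). Edn1, endothelin-1, had 0.84 (SE 0.28), from an effect of 0.76 in WKY (limma adjusted p = 0.0593, not called) and −0.08 in SH. Ptgis, prostacyclin synthase, had −1.06 (SE 0.36). The endothelial genes Nos3, the nitric oxide synthase, and Kdr, the VEGF receptor, had −0.21 (SE 0.21) and 0.38 (SE 0.15). Of 11 measured endothelial markers 1 was higher and 2 lower, and the lower ones are not named here. Rbm3, a cold-induced RNA-binding protein, rose in WKY (441 ± 53.3 to 821 ± 182, limma adjusted p = 0.0480) and was 0.46 higher in SH, with an interaction of 0.40 (SE 0.29). Ephx2, soluble epoxide hydrolase, had 0.46 (SE 0.27).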

How the data were processed

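The authors hybridized left ventricular RNA of 16 rats to Affymetrix Rat 230A arrays and deposited a table of linear MAS5 intensities (signals), 1 for each array and probe set. The MAS5 version is not given in the sources used here. The values show that arrays had been scaled to a common trimmed mean of 500 (2% off either tail). The 57 control probe sets of 15923 were left out, and the deposited intensities were put on the log2 scale with an offset of 16.2 (their 10th percentile), below which lay at most 12.5% of an array. One limma 3.58.1 model of the 4 group means (R 4.3.3) gave the effects, with 12 residual and 2.69 prior degrees of freedom, a median SE of 0.30 for the interaction and of 0.21 within a strain. The number of arrays limits the precision. Adjustment was by Benjamini-Hochberg over 15866 probe sets. The platform annotation gave 1 gene for 12783 probe sets, several for 312 and none for 2771, and a gene was represented by its probe set of highest mean. Figures and tables used Python 3.11.15, pandas 2.3.3, numpy 2.4.6 and matplotlib 3.10.9.

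Genes named are those called, the 10 of lowest interaction p in each direction, the 5 of lowest p in each direction with opposite responses, up to 3 members per list at an unadjusted p under 0.05, and genes named in the paper. Some that the rule admits are left out, and 7 genes with opposite responses were added after their values were seen. The members and lists were chosen with earlier results of these data known. Promoters came from a table of RefSeq sequences (GRCr8), in which 66 of the 85 genes named were matched. The calculations were tested on simulated data. Alternatives were other offsets, quantile normalization, median centring, a dim filter, an intensity trend, array weights, the replicate number as a block, an atrial marker covariate, a stricter threshold and leaving out arrays.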

Additional observations from a re-analysis of the deposited data

Results flagged for a closer look

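The DE response of Fam84b differed between the strains by the interaction test itself (−1.85 on the log2 scale, limma adjusted p = 0.02, n = 4 arrays per group). Of 344 groups of 4 arrays examined for a value far from the others, 25 held one, where chance alone gives about 5% of groups, and the values are listed here without an explanation. Fam84b was 57.3 in WKY-air replicate 1 against 44.8–46.9 in the other 3, and 14.0 in WKY-DE replicate 4 against 6.72–7.03. Col5a3 was 222 in WKY-air replicate 4, 50.7 in WKY-DE replicate 1 and 50.5 in SH-DE replicate 3. In WKY-air, Snrpd2 was 1718 in replicate 1, and in replicate 3 Ppargc1a was 304, Cd3g 63.4 and Tlr7 65.0. In WKY-DE, Eif2ak2 was 300.4 in replicate 1, and in replicate 3 Cytl1 was 484, S100a10 1267 and Eif3k 1186, the last against 1084–1099. In WKY-DE replicate 4 Rbm27 was 156, Ptgis 457 and Ryr2 5585. In SH-air, Kcnj2 was 139.9 and Ehhadh 276 in replicate 2, and S100a11 was 1943 in replicate 3. In SH-DE, Cntn5 was 20.6 in replicate 1 and Nos3 161 in replicate 2, and in replicate 3 Lyz2 was 3279, Sln 2668 and Rarres2 1006. The median signal of 1 WKY-air array was 178, against 190.3–192 in the other 3.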

How the results depend on the processing

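Of 2269 combinations of a named gene and another setting, 2234 kept their direction and side of the threshold, 13 lost and 20 gained a call, and 2 changed sign, both with the atrial marker covariate: Hmox1 (0.009 against −0.144) and Sln (1.06 against −4.14). Only Fam84b of these genes was called as reported, so that for the others keeping the side means staying uncalled. Many were chosen by a low interaction p, so that these counts do not measure robustness. Interaction calls numbered 1 as reported, 0 with an offset of 1, the replicate block, the atrial covariate, an adjusted p under 0.01, and without replicate 3 of both DE groups or without SH-DE replicates 2 and 3 (the latter chosen after seeing the data), 2 with median centring, a dim filter or an intensity trend, 4 with an offset at the 25th percentile and 6 after quantile normalization. Leaving out 1 array gave 0 to 6, namely 6 with SH-air replicate 3 left out, 5 with WKY-air replicate 2, 3 with SH-DE replicate 4 or WKY-DE replicate 1, and 0 without SH-air replicates 2 or 4, SH-DE 1 or 3, WKY-air 4 or WKY-DE 2 or 3. Fam84b was called in 13 of the 26 other fits that held it. Probe sets with a higher WKY response numbered 305 as reported, 176 after quantile normalization, 136 with centring, 133 with the atrial covariate and 157 without SH-DE replicates 2 and 3, and 211 to 389 without 1 array. Those with a lower response numbered 172, 361 with centring, 259 with the trend, 67 with the covariate and 98 without SH-DE replicates 2 and 3, and 132 to 203 without 1 array. WKY calls numbered 239, 441 at the 25th percentile, 79 after quantile normalization, 537 with the dim filter, 542 with the trend, 427 with array weights, 88 with the block, 4 with the covariate, 79 without replicates 3, 113 without SH-DE replicates 2 and 3, 3 at an adjusted p under 0.01, and 35 to 240 without 1 array (42, 99 and 70 without WKY-air 1, 2 and 4, 62, 35, 82 and 76 without WKY-DE 1 to 4, and 154 without SH-air 4). SH calls numbered 0, 1 with the trend or the block, 2 with array weights and 0 to 3 without 1 array (3 without SH-DE 1). Opposite responses numbered 69, 42 without SH-DE replicates 2 and 3, and 57 to 113 without 1 array (113 without SH-air 3). The causes were not tested. Replicate numbers did not pair the arrays (same-number correlations of −0.0961 to 0.0534 over 24 pairs). Signals near the offset limit what dim genes can show.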
